A study of Homo sapiens with 9 samples.

Results

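Zinc crosses cell membranes through proteins of 2 gene families, SLC39 (also called ZIP) and SLC30 (also called ZnT). ZIP proteins carry zinc into the cytosol, either from outside the cell or out of organelles. Most ZnT proteins carry it the other way, out of the cell or into the endoplasmic reticulum, Golgi and vesicles. Free zinc in the cytosol is kept low by metallothioneins, small cysteine-rich proteins whose genes are switched on by the zinc-sensing transcription factor MTF1, which binds metal response elements in their promoters. The genes described here are 10 members of these families, the importers SLC39A1, SLC39A6, SLC39A7, SLC39A8, SLC39A9, SLC39A10 and SLC39A14 and the exporters SLC30A1, SLC30A5 and SLC30A9. They were picked by symbol from the 57757 gene IDs of the deposited tables, which hold 24 SLC39 and SLC30 genes in all. The choice was made with an earlier analysis of these libraries in view, in which the fall of SLC39A10 after TBX2-AS1 siRNA was already known. Its values in that group are therefore given as a description, with no test, and the tests of the other 9 genes are read beside the share of all genes that passed.

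The libraries came from NLF, a human neuroblastoma cell line labelled as wild type, and bulk total RNA was sequenced after 48 h of treatment with small interfering RNA (siRNA). There were 3 groups of 3 biological replicates, cells given a non-targeting control siRNA (siNTC), an siRNA against the T-box transcription factor gene TBX2 (siTBX2), and an siRNA against TBX2-AS1 (siTBX2-AS1), a noncoding RNA transcribed antisense to TBX2. All groups therefore share the line, the medium and the presence of an siRNA, and every value rests on 1 cell line with a transient knockdown. The labels do not say how many siRNAs made up each reagent, and the siRNA sequences were not used here.

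Libraries held 31894280 to 51434090 counts assigned to genes. TBX2 RNA was 249 to 276 CPM (counts divided by library size, with factors by the trimmed mean of M values, TMM) in siNTC, 110 to 127 in siTBX2 and 173 to 228 in siTBX2-AS1, and TBX2-AS1 RNA was 34.0 to 37.5, 31.7 to 38.7 and 0.714 to 5.87 CPM, so both targeted RNAs were lowest in the libraries named for them. Of 11 sympathetic neuroblast markers 8 averaged at least 1 CPM, with summed levels of 953 to 1045, 1018 to 1118 and 1018 to 1097 CPM in siNTC, siTBX2 and siTBX2-AS1, while TH, which codes for tyrosine hydroxylase, was at 0 in all 9 libraries. Within that list members moved in different directions. MYCN, the oncogene of high-risk neuroblastoma, averaged 263, 433 and 346 CPM in the 3 groups and was called in each comparison by edgeR's quasi-likelihood test (log2 difference of 0.72 for siTBX2 and 0.39 for siTBX2-AS1 against siNTC and -0.32 between the knockdowns, adjusted p = 0.00849, 0.0258 and 0.0485), the last 2 calls lost in 6 and 7 of 9 fits without 1 library. STMN2, a neuronal growth gene, averaged 95.7, 49.1 and 115 CPM and was called between the knockdowns (1.22, adjusted p = 0.0209, lost in 4 of 9 such fits), while siTBX2 against siNTC gave -0.96 (adjusted p = 0.0855, and 0.0249 with a block for replicate number). Of 6 Schwann cell and melanocyte markers 2 averaged at least 1 CPM, MITF at 9.12 to 20.8 and PMEL at 1.10 to 3.04 CPM, with list sums of 12.6 to 14.1, 15.1 to 23.7 and 13.9 to 22.5 CPM, and SOX10 was at 0. Sums were 1.49 to 4.78 CPM for 5 leukocyte markers (CD3E at 0), 0.534 to 1.31 CPM for 4 epithelial markers (KRT5 at 0) and 0.124 to 2.5 CPM for 3 endothelial markers, of which VWF was called lower in siTBX2-AS1 than in siTBX2 (means of 0.298 and 1.58 CPM, adjusted p = 0.0349, lost in 8 of 9 such fits). The part of these markers in the results was not tested. In bulk RNA, fewer cells of a kind and less RNA per cell cannot be told apart.

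SLC39A10 (ENSG00000196950.9, chr2:195575977-195737702, plus strand, GRCh38) codes for ZIP10, a zinc importer of the plasma membrane. An earlier analysis of these data had found the word TTAAACT in the 3′ UTRs of many genes that fell after TBX2-AS1 siRNA, so the longest annotated 3′ UTR of each family gene was searched for it on the transcript strand (GENCODE release 29, GRCh38). It was present in 6 of the 24 family genes, SLC39A10, SLC39A8, SLC30A1, SLC30A4, SLC30A6 and SLC30A7, all 6 among the 16 family genes that were tested for change, where 20.3% of the 13015 tested genes whose 3′ UTR was searched held it. The windows below run 5′ to 3′ on the transcript strand with the 7-base word in capitals, and they are shown because the changes of the family are set beside them later. The word came from these same libraries and is not independent of the fall of SLC39A10.
SLC39A10: aaaaaaatcatTTAAACTttaaaaatatt
SLC30A6 site 1: gattgcttgaaTTAAACTgtttggattaa
SLC30A6 site 2: taatcatcaaaTTAAACTtctttccacgt
SLC30A7 site 1: cctttggaaagTTAAACTttttttttcct
SLC30A7 site 2: taccattgatcTTAAACTgtgcaggctaa
SLC30A7 site 3: gtaatctatgcTTAAACTtaacatttaat
SLC30A7 site 4: tatatattttgTTAAACTtcatatgtatt
SLC39A8: ttatggtagagTTAAACTtcgtactctta
SLC30A1 site 1: tgacttttgctTTAAACTgcaagaggaaa
SLC30A1 site 2: tgttattcaatTTAAACTtttaaaccaaa
SLC30A4: tgaagttagtcTTAAACTcaaattactat

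The SLC39A10 window lies at chr2:195735385-195735413 (plus strand), at base 355 of a 3′ UTR of 2661 bases. Those of SLC30A6 are at chr2:32224052-32224080 and chr2:32224346-32224374 (plus strand), and the SLC39A8 window is at chr4:102252024-102252052 (minus strand). The 4 windows of SLC30A7 (plus strand) are at chr1:100979209-100979237, chr1:100980028-100980056, chr1:100980350-100980378 and chr1:100981668-100981696, in the longest 3′ UTR of the 24 genes, 6580 bases. The windows of SLC30A1 are at chr1:211575337-211575365 and chr1:211572031-211572059 and that of SLC30A4 at chr15:45484401-45484429 (all minus strand). Genes with the word had longer 3′ UTRs across the whole table, with a median of 2915 bases against 1093 bases without it, and the part of length in the shares that follow was not tested.

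Among the importers, SLC39A10 had the largest log2 differences, both in siTBX2-AS1. Its levels in siNTC replicates 1, 2 and 3 were 183, 205 and 176 CPM, the siTBX2 libraries had 169, 198 and 144 CPM, and the siTBX2-AS1 libraries had 39.4, 62.9 and 41.6 CPM. The siTBX2-AS1 libraries lay wholly below the other 6, while siNTC and siTBX2 overlapped. The group mean fell from 188 ± 15 CPM (SD, n = 3) in siNTC to 47.9 ± 13.0 CPM (SD, n = 3) in siTBX2-AS1, 25.5% of the control level, a log2 difference of -1.97 with a standard error (SE) of 0.19. Against siTBX2, where the mean was 171 ± 27.2 CPM (SD, n = 3), the log2 difference was -1.83 (SE 0.19). The depth behind these values was 7766 to 9329 counts in siNTC and 1339 to 2484 in siTBX2-AS1, and leaving out any 1 of the 9 libraries moved the log2 difference from siNTC between -2.22 and -1.86. In siTBX2 against siNTC the difference was -0.14 (SE 0.19, adjusted p = 0.797 in edgeR's quasi-likelihood test). All adjusted p-values below come from that test, with Benjamini-Hochberg adjustment over the 18367 genes tested.

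In terms of transcript per length, the deposited FPKM (fragments per kilobase of transcript and library size) of SLC39A10 were 23.0, 30.3 and 23.0 with control siRNA, 16.8, 25.0 and 18.8 with siTBX2, and 4.70, 6.31 and 8.15 with siTBX2-AS1. SLC39A10 made up 13.7% to 17.8% of the summed FPKM of the 7 importers in siNTC, 10.8% to 19.7% in siTBX2 and 3.05% to 4.58% in siTBX2-AS1. The summed importer FPKM itself did not separate the groups, at 129 to 186, 127 to 165 and 154 to 178. Beside SLC39A6, whose protein ZIP6 is its closest relative and can form a heteromer with ZIP10, the CPM ratio of SLC39A10 to SLC39A6 was 0.673, 0.955 and 0.732 with control siRNA, 0.768, 0.939 and 0.660 with siTBX2, and 0.128, 0.224 and 0.149 with siTBX2-AS1.

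SLC39A6 (ENSG00000141424.8, chr18:36108532-36129385, minus strand, GRCh38) was the most abundant of the 10 genes per length. Its levels were 272, 214 and 240 CPM with control siRNA, 220, 211 and 218 CPM with siTBX2 and 308, 281 and 279 CPM with siTBX2-AS1. All 3 siTBX2-AS1 libraries were above the other 6 in CPM. In FPKM they were not, at 60.2, 42.5 and 55.4 against 52.6, 40.3 and 44.1 in siNTC. The siTBX2-AS1 group exceeded siTBX2 in SLC39A6 by a log2 difference of 0.42 (SE 0.09, adjusted p = 0.0326), but that call did not hold in 7 of the 9 fits that left out 1 library (siNTC replicate 3 or any siTBX2 or siTBX2-AS1 replicate, adjusted p of 0.0527 to 0.116), with no filter on low counts (0.0538) or on FPKM (0.202 to 0.383). Against siNTC the difference was 0.26 (SE 0.09, adjusted p = 0.164), and siTBX2 against siNTC gave -0.16 (SE 0.09, adjusted p = 0.430). No TTAAACT was found in its 3′ UTR of 1061 bases.

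**Figure D1:**
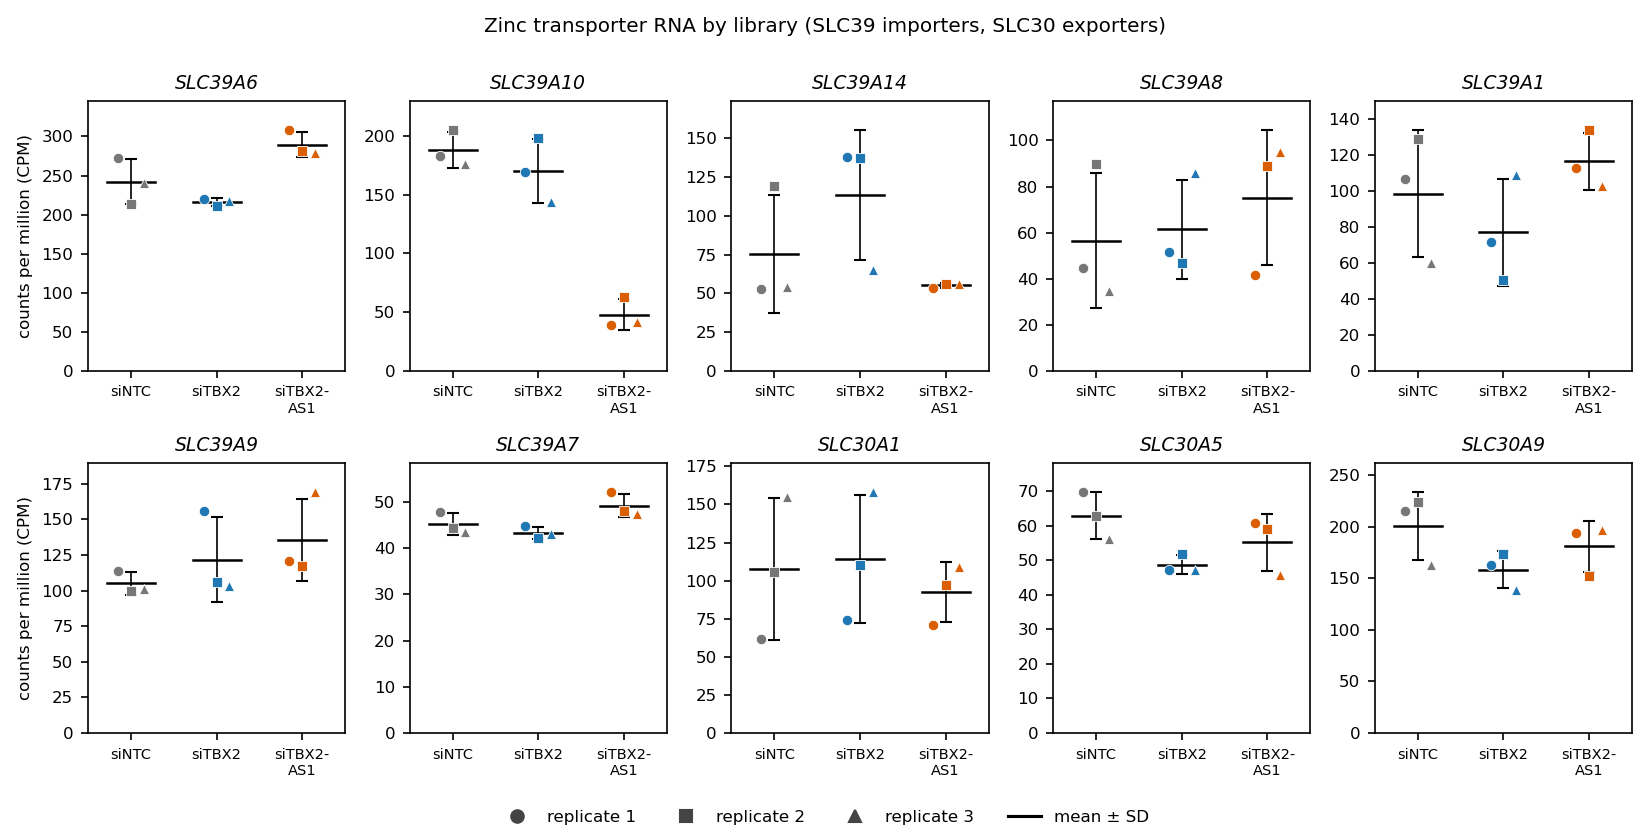
Each panel plots the level of 1 zinc transporter gene in CPM (y axis, from 0) in the 3 siRNA groups (x axis), with points for libraries, shapes for replicate numbers, and lines with bars for the mean ± SD of 3 libraries. The 3 siTBX2-AS1 libraries of SLC39A10 lie between 39.4 and 62.9 CPM, below all 6 others, and in SLC30A1 the library numbered 1 is the lowest and that numbered 3 the highest of each group, though siTBX2-AS1 replicate 3 is at 109 CPM, beside the replicate 2 libraries of the other groups.

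SLC39A14 (ENSG00000104635.9, chr8:22367249-22434129, plus strand, GRCh38) and SLC39A8 (ENSG00000138821.8, chr4:102251041-102431258, minus strand) code for ZIP14 and ZIP8, broad importers that also carry manganese and iron. SLC39A14 was at 52.8, 119 and 53.9 CPM in siNTC replicates 1, 2 and 3, 138, 137 and 65.3 CPM in those of siTBX2 and 53.5, 55.9 and 56.2 CPM in those of siTBX2-AS1. Its libraries fell into a low set near 52.8 to 65.3 CPM and 3 libraries at 119 to 138 CPM, 1 from siNTC and 2 from siTBX2. The difference of siTBX2-AS1 from siTBX2 was -1.04 on the log2 scale (SE 0.37, adjusted p = 0.157, and 0.036 in DESeq2), with no overlap between the libraries. The other contrasts were 0.59 (SE 0.37, adjusted p = 0.492) for siTBX2 against siNTC and -0.44 (SE 0.37, adjusted p = 0.604) for siTBX2-AS1 against siNTC, the latter becoming 0.04 without siNTC replicate 2.

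SLC39A8 was at 44.8, 89.9 and 34.8 CPM in the siNTC libraries, 51.6, 46.8 and 86.0 CPM after siTBX2 and 41.7, 88.8 and 95.2 CPM after siTBX2-AS1. Each group held libraries of 34.8 to 51.6 CPM and libraries of 86.0 to 95.2 CPM. The log2 differences of 0.12, 0.41 and 0.29 had an SE of 0.43 each and the groups overlapped in every comparison. It was also the least abundant of the 10 genes per length in siNTC, at 8.57 ± 6.15 FPKM (SD, n = 3).

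SLC39A1 (ENSG00000143570.13, chr1:153959099-153968184, minus strand, GRCh38) codes for ZIP1, a widely expressed importer of the plasma membrane. Its levels were 107, 129 and 60.1 CPM with control siRNA, 71.9, 50.4 and 109 CPM with siTBX2 and 113, 134 and 103 CPM with siTBX2-AS1. Within siNTC and within siTBX2 the highest library was 2.15 times the lowest, and none of the log2 differences, -0.36, 0.24 and 0.61 (SE 0.33 each), passed the test. Of its 3388 exonic bases, 2061 are shared on the same strand with another annotated gene, AL358472.7, which was not analysed here, so the split of reads between them is uncertain.

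SLC39A7 (ENSG00000112473.12, chr6:33200445-33204439, plus strand, GRCh38) and SLC39A9 (ENSG00000029364.7, chr14:69398015-69462388, plus strand) code for proteins that release zinc from intracellular stores, ZIP7 from the endoplasmic reticulum and ZIP9 from the trans-Golgi network. SLC39A7 was the steadiest of the 10 genes, at 47.9, 44.3 and 43.4 CPM in siNTC replicates 1, 2 and 3, 44.8, 42.1 and 43.0 CPM in those of siTBX2 and 52.1, 48.1 and 47.4 CPM in those of siTBX2-AS1. Its siTBX2-AS1 libraries lay above all siTBX2 libraries, a log2 difference of 0.18 (SE 0.08, adjusted p = 0.249). SLC39A9 was at 114, 99.9 and 101 CPM in the siNTC libraries, 156, 106 and 103 CPM after siTBX2 and 121, 117 and 169 CPM after siTBX2-AS1. Every siTBX2-AS1 library was above every siNTC library, with a log2 difference of 0.37 (SE 0.19, adjusted p = 0.360). Exons of SLC39A9 share 373 bases with ERH on the opposite strand, and those of SLC39A7 share 244 with RXRB. The sources used here do not say whether reads were counted by strand.

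SLC30A1, SLC30A5 and SLC30A9, the exporters among the described genes, gave no call in any comparison. SLC30A1 (ENSG00000170385.9, chr1:211571568-211578742, minus strand, GRCh38) codes for ZnT1, which removes zinc across the plasma membrane and is itself an MTF1 target. Its levels were 61.8, 106 and 155 CPM with control siRNA, 74.4, 110 and 158 CPM with siTBX2 and 70.6, 97.2 and 109 CPM with siTBX2-AS1. The library numbered 1 was the lowest and that numbered 3 the highest in all 3 groups, and the SD of log2 CPM was 0.20 among libraries sharing a number against 0.53 within groups. The siTBX2-AS1 replicate 3 library was apart from its number, nearer to replicate 2 of the other groups. The log2 differences of siTBX2 and siTBX2-AS1 from siNTC were 0.09 and -0.22 (SE 0.37 each, adjusted p = 0.945 and 0.824), and both changed sign when single libraries were left out, the first without siNTC replicate 1 or siTBX2 replicate 3 and the second without siNTC replicate 3.

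SLC30A5 (ENSG00000145740.14, chr5:69093646-69131069, plus strand, GRCh38) codes for ZnT5, which works with ZnT6 to load zinc into the early secretory pathway. It was at 69.7, 62.9 and 56.3 CPM in siNTC replicates 1, 2 and 3, 47.2, 51.9 and 47.1 CPM in those of siTBX2 and 60.8, 59.1 and 45.8 CPM in those of siTBX2-AS1. All siTBX2 libraries were below all siNTC libraries, at 77.4% of the control mean, a log2 difference of -0.37 (SE 0.13, adjusted p = 0.204). SLC30A9 (ENSG00000014824.9, chr4:41990472-42090457, plus strand) codes for ZnT9, a zinc exporter of mitochondria. It was at 215, 224 and 163 CPM in the siNTC libraries, 163, 174 and 139 CPM after siTBX2 and 194, 152 and 197 CPM after siTBX2-AS1, with log2 differences of -0.34 (SE 0.15, adjusted p = 0.318) and -0.15 (SE 0.15, adjusted p = 0.685) from siNTC.

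Counted over the 10 genes, all of which passed the filter on low counts, 0 were called in siTBX2 against siNTC by edgeR at an adjusted p under 0.05, where 1.61% of all tested genes were called (0.811% lower and 0.795% higher). At an unadjusted p under 0.05 the count was 1 (SLC30A5), and DESeq2 and limma on log2(FPKM + 1) also gave 0. In siTBX2-AS1 against siNTC 1 was past the threshold, SLC39A10, where 4.57% of all genes were called (2.78% lower, 1.79% higher), and nothing is read from that count because the gene was chosen with this change known. In siTBX2-AS1 against siTBX2, SLC39A10 was again past the threshold and again nothing is read from it. Of the other 9 genes 1, SLC39A6, was called, as higher, where 5.53% of all genes were called (3.5% lower, 2.03% higher). Group libraries did not overlap for 1, 2 and 3 of these 9 genes in the 3 comparisons, where 22.8%, 24% and 26.7% of all tested genes did not. The median log2 difference over the 9 genes was -0.06, 0.12 and 0.18, and over all tested genes 0.00, 0.01 and 0.01. The comparisons with siNTC share the same control libraries.

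**Figure D2:**
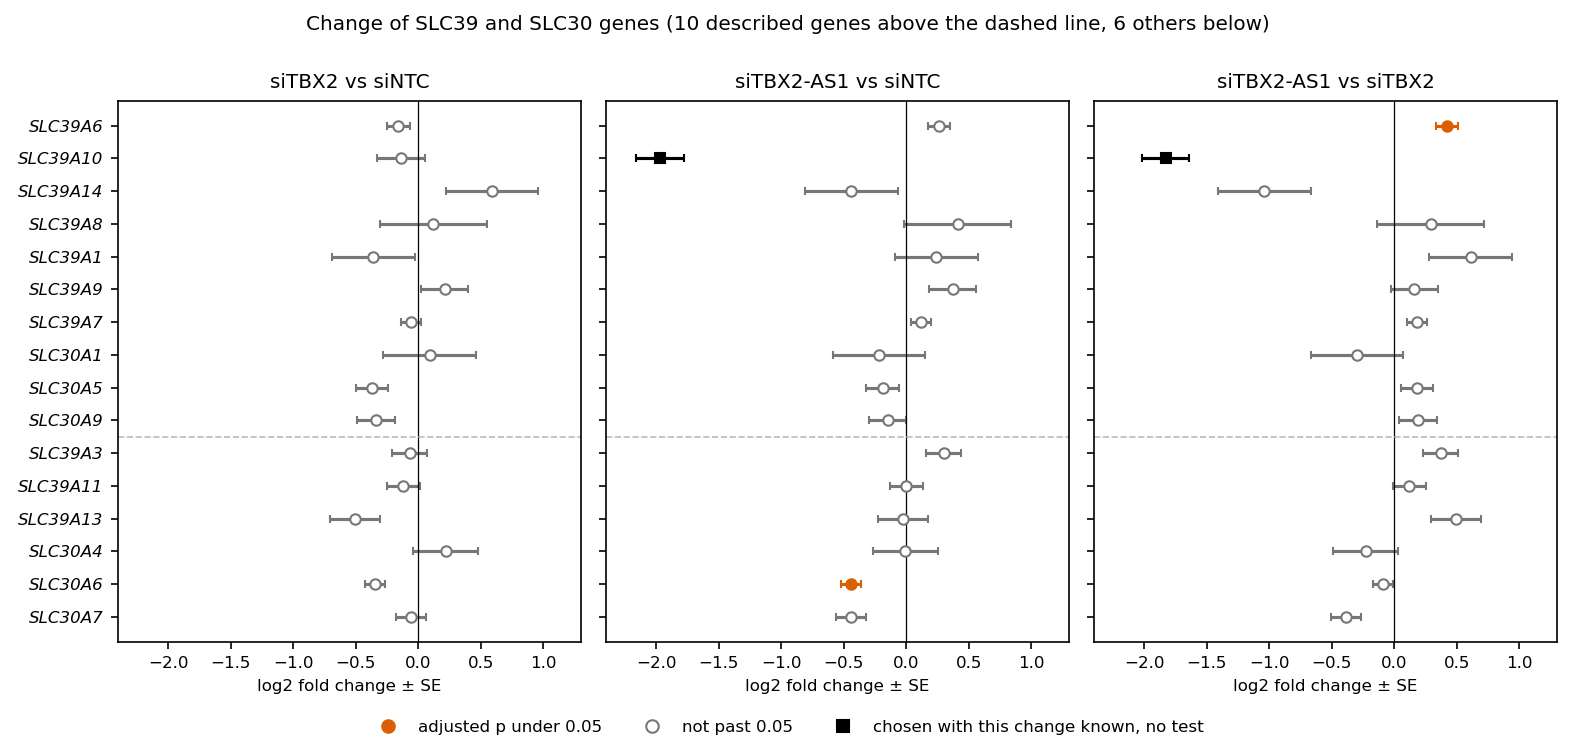
Log2 fold change (x axis, bars are the SE) of 16 tested SLC39 and SLC30 genes (y axis) in the 3 comparisons, with filled orange circles for genes past the adjusted p of 0.05 and black squares for SLC39A10, which was chosen with that change known. SLC39A10 lies at -1.97 and -1.83 in siTBX2-AS1 against siNTC and siTBX2 and at -0.14 in siTBX2 against siNTC, and the other 15 genes lie between -1.04 and 0.61.

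The order of abundance in control cells, per length, was SLC39A6 (45.7 ± 6.30 FPKM, SD, n = 3), SLC39A1 (33.0 ± 16.7), SLC30A9 (32.5 ± 7.21), SLC39A10 (25.5 ± 4.21), SLC39A9 (20.1 ± 3.22), SLC39A7 (14.3 ± 2.05), SLC39A14 (13.8 ± 3.39), SLC30A5 (13.8 ± 1.45), SLC30A1 (13.2 ± 5.29) and SLC39A8 (8.57 ± 6.15). Libraries of neighbours in this order overlapped for every pair but SLC39A9 and SLC39A7. In siTBX2-AS1, SLC39A10 had the lowest mean of the 10, 6.39 ± 1.73 FPKM (SD, n = 3), and its libraries overlapped those of SLC39A8 (7.94 to 16.3 FPKM) and of no other gene among them.

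The deposited counts and FPKM of a gene need not move together, since FPKM is also divided by transcript length. For SLC30A9 the count-to-FPKM ratio, on a log2 scale and relative to gene and library medians, was 0.74 in siTBX2 replicate 3 and 0.99 in siTBX2-AS1 replicate 2 and between -0.23 and 0.01 in the other 7 libraries. FPKM in those 2 libraries were 12.9 and 10.7, against 24.2 to 37.3 in the others, while their count levels of 139 and 152 CPM were also the lowest, against 163 to 224 CPM in the others. For SLC39A8 the ratio was 0.84, 0.67 and 0.49 in siNTC replicate 3 and siTBX2 replicates 1 and 2, where FPKM was 3.08 to 5.28, and between -0.19 and 0.00 elsewhere. For SLC39A1 the ratio was -0.36, -0.35 and -0.37 in siNTC replicate 2, siTBX2 replicate 3 and siTBX2-AS1 replicate 2, where FPKM was 43.5 to 50.5. The SD of this ratio over 9 libraries placed SLC30A9, SLC39A8 and SLC39A14 at percentiles 97.9, 96.5 and 95.1 among 10809 genes, and SLC30A1 at percentile 8.4 (SD 0.01). For SLC39A10 it ran from -0.53, in siTBX2-AS1 replicate 3, to 0.37, a range smaller than its group difference. What moves the ratio was not tested.

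**Figure D3:**
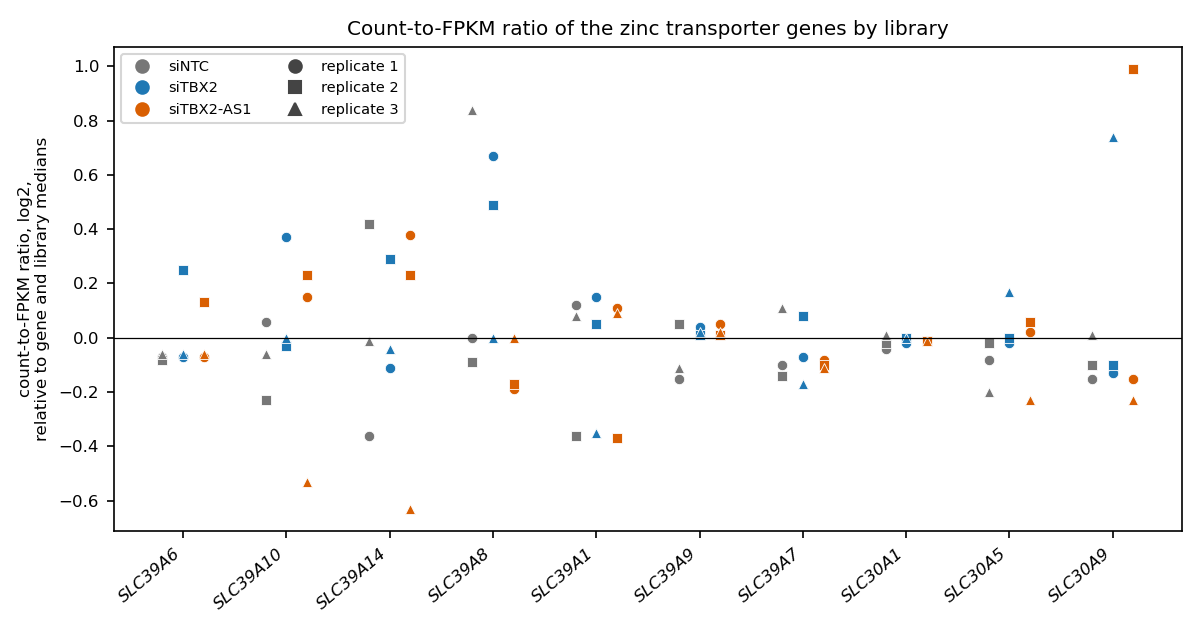
Log2 count-to-FPKM ratio (y axis, relative to each gene's and library's median) of the 10 zinc transporter genes (x axis), with colours for siRNA groups and shapes for replicate numbers. SLC30A9 has 2 libraries at 0.74 and 0.99 and SLC39A8 has 3 at 0.49 to 0.84, while SLC30A1 stays within -0.04 and 0.01.

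The replicate spread of the 10 genes was uneven. The within-group SD of log2 CPM was 0.62 for SLC39A8, 0.53 for SLC39A14, 0.53 for SLC30A1 and 0.47 for SLC39A1, placing them at percentiles 96.6, 95.3, 95.8 and 94.4 among genes of like level. It was 0.07 for SLC39A7 (percentile 5.2) and 0.11 for SLC39A6 (percentile 45.1). The SE of a log2 difference was 0.33 to 0.43 for the first 4 genes and 0.08 to 0.19 for the other 6.

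Of the 14 remaining family genes, 6 passed the filter on low counts, SLC39A3, SLC39A11, SLC39A13, SLC30A4, SLC30A6 and SLC30A7. The other 8, SLC39A2, SLC39A4, SLC39A5, SLC39A12, SLC30A2, SLC30A3, SLC30A8 and SLC30A10, did not and were not tested. SLC30A6, which codes for the ZnT6 partner of ZnT5, was at 116, 111 and 103 CPM with control siRNA, 90.3, 86.5 and 82.5 CPM with siTBX2 and 87.9, 79.6 and 76.4 CPM with siTBX2-AS1. Both knockdown groups lay below all control libraries. The fall in siTBX2-AS1, -0.44 on the log2 scale (SE 0.08, adjusted p = 0.0235), was edgeR's only call among these 6 genes in any comparison. In siTBX2 against siNTC and between the knockdowns edgeR called 0, with 2 and 3 at an unadjusted p under 0.05, and DESeq2 called 1 in each. The SLC30A6 call did not hold without siNTC replicate 1 or 2 or siTBX2-AS1 replicate 2 or 3 (adjusted p of 0.0778 to 0.0847), nor on FPKM (0.187). In siTBX2 the difference was -0.35 (SE 0.08, adjusted p = 0.0855), and with the replicate block the adjusted p was 0.0217.

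SLC30A7 codes for ZnT7, a Golgi exporter, and was at 109, 108 and 111 CPM in siNTC replicates 1, 2 and 3, 113, 108 and 93.4 CPM in those of siTBX2 and 70.8, 75.1 and 95.2 CPM in those of siTBX2-AS1. All siTBX2-AS1 libraries were below all siNTC libraries, a log2 difference of -0.44 (SE 0.12, adjusted p = 0.0818, and 0.0171 in DESeq2), which became -0.60 (adjusted p = 0.0285) without siTBX2-AS1 replicate 3. SLC39A3, SLC39A11, SLC39A13 and SLC30A4 differed from siNTC by 0.30, 0.00, -0.03 and -0.01 in siTBX2-AS1 and by -0.07, -0.12, -0.51 and 0.22 in siTBX2, none past the test. SLC39A13, which codes for the importer ZIP13, had the largest of these, with an SE of 0.20 and an adjusted p of 0.249.

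Set against the TTAAACT windows, the 6 family genes with the word had a median log2 difference of -0.33 in siTBX2-AS1 against siNTC, 5 of 6 below 0. The 10 tested family genes without it had a median of 0.06, 4 of 10 below 0, and of all tested genes 8951 of 18367 were below 0. Of the 5 below 0, SLC30A1 at -0.22 (SE 0.37) and SLC30A4 at -0.01 (SE 0.26) lay within their SE of 0. SLC39A8, with 1 copy, was above 0 at 0.41 (SE 0.43), and SLC30A7, with 4 copies, changed less than SLC39A10 with 1. In siTBX2 against siNTC the same 6 genes had a median of 0.01, 3 of 6 below 0, and the 10 without the word had a median of -0.14, 8 of 10 below 0. Of all searched genes, 11.5% of those with the word fell in siTBX2-AS1 against 1.52% without it. Because the word was found in these same libraries, and SLC39A10 is among the genes that fell, these figures describe and do not test. Of the other words from that earlier analysis, CAGAATG was in 5 family 3′ UTRs (SLC39A8, SLC39A9, SLC39A14, SLC30A4 and SLC30A5; 17.2% of all searched genes) and AGACGTA in 0 of 24 (1.78%). A match in a 3′ UTR shows only that the letters are there.

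The genes whose profile over the 9 libraries was most like that of SLC39A10, by the root mean square difference of centred log2 CPM, were SMIM13 (0.178), HCCS (0.201), PRKAR1A (0.210), YES1 (0.236) and GXYLT1 (0.241), where the median over 11934 genes was 0.966. PRKAR1A, a regulatory subunit of protein kinase A, was at 293, 300 and 274 CPM in the siNTC libraries, 255, 300 and 291 CPM after siTBX2 and 57.7, 120 and 91.7 CPM after siTBX2-AS1. HCCS, which attaches haem to cytochrome c, was at 24.3 to 29.4, 25.8 to 28.1 and 6.70 to 8.25 CPM. The 5 genes were at 28.2% to 34.0% of the control level in siTBX2-AS1, which follows from choosing them by likeness to SLC39A10. Each held TTAAACT in its 3′ UTR, with 2, 2, 3, 1 and 2 copies in the order above, where 20.3% of all searched genes held it. Since the word came from genes that fell in these libraries, that count is a description too. By FPKM, 4 of the 5 were again among the nearest 5.

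The zinc sensor gene MTF1 and 12 metallothionein genes were examined in the same comparisons. Of these 13 genes 4 passed the filter, MTF1, MT1E, MT1X and MT2A. All 4 rose in siTBX2-AS1 against siNTC, with a median log2 difference of 0.64, where 1.79% of all tested genes rose, and DESeq2 called 4 and limma on log2(FPKM + 1) called 3. The list was drawn up with earlier results of these data known, so its counts here and below are a description. MT2A was at 9.52, 9 and 8.83 CPM with control siRNA, 6.87, 6.79 and 7.43 CPM with siTBX2 and 14.3, 16.2 and 14.1 CPM with siTBX2-AS1. The 3 groups did not overlap, and siTBX2-AS1 was 163% of siNTC, a log2 rise of 0.71 (SE 0.11, adjusted p = 0.00982) that held in all 9 fits without 1 library (0.63 to 0.74). Against siTBX2 the rise was 1.08 (SE 0.11, adjusted p = 0.00135).

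MT1X was at 5.97, 6.03 and 6.38 CPM in siNTC replicates 1, 2 and 3, 6.79, 7.17 and 7.30 CPM in those of siTBX2 and 9.54, 8.60 and 9.28 CPM in those of siTBX2-AS1, a rise of 0.58 over siNTC (SE 0.11, adjusted p = 0.0225). MT1E was at 1.63, 1.09 and 1.11 CPM in the siNTC libraries, 0.891, 0.406 and 0.395 CPM after siTBX2 and 5.79, 4.02 and 4.28 CPM after siTBX2-AS1, resting on 47 to 83, 17 to 42 and 138 to 300 counts. It rose by 1.88 over siNTC (SE 0.34, adjusted p = 0.0189) and by 3.05 over siTBX2 (SE 0.36, adjusted p = 0.00278). MTF1 was at 26.5, 28.7 and 25.7 CPM with control siRNA, 29.3, 27.0 and 24.6 CPM with siTBX2 and 44.7, 36.3 and 37.2 CPM with siTBX2-AS1, a rise of 0.55 over siNTC (SE 0.11, adjusted p = 0.0330). In each of these 3 genes every siTBX2-AS1 library was above every other library. The rise over siNTC lost its call without 1 library in 4 of 9 fits for MT1E, 6 of 9 for MT1X and 7 of 9 for MTF1, with adjusted p up to 0.0778, 0.0954 and 0.114. MTF1 also lost it on every FPKM setting (adjusted p of 0.163 to 0.351), without the count filter (0.0533) and in a fit of just the 2 groups (0.0756), and MT1X with no filter on counts (0.0569) or FPKM (0.0692) and with only the 2 groups (0.0756). Without siNTC replicate 2 or 3 or siTBX2-AS1 replicate 1 or 3, 1 of the 4 genes was called, and without siNTC replicate 1 or siTBX2-AS1 replicate 2 the count was 2. The summed level of MT1E, MT1X and MT2A was 16.1 to 17.1, 14.4 to 15.1 and 27.7 to 29.7 CPM in siNTC, siTBX2 and siTBX2-AS1. Metallothionein genes are near-identical copies, so the division of reads among them is uncertain. Of the 1773 exonic bases of MT1X, 321 are also shared on the same strand with another annotated gene, AC026461.1.

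In siTBX2 against siNTC, 0 of the 4 were called by edgeR, with 2 at an unadjusted p under 0.05 and 2 called lower by DESeq2 and 0 by limma on log2(FPKM + 1). MT2A differed by -0.37 (SE 0.11, adjusted p = 0.139) and MT1E by -1.17 (SE 0.35, adjusted p = 0.148), the latter -1.22 with an adjusted p of 0.0279 with the replicate block. Against siTBX2, edgeR called siTBX2-AS1 higher in 3 of the 4, where 2.03% of all genes were higher, all but MT1X (0.37, SE 0.11, adjusted p = 0.0941, and 0.0166 in DESeq2). DESeq2 called 4 and limma on log2(FPKM + 1) called 2. For MTF1 this rise of 0.55 (adjusted p = 0.0291) did not hold without any 1 of the siTBX2 or siTBX2-AS1 replicates (adjusted p of 0.0510 to 0.0977), with only the 2 groups fitted (0.0669) or on FPKM (0.129 to 0.293).

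**Figure D4:**
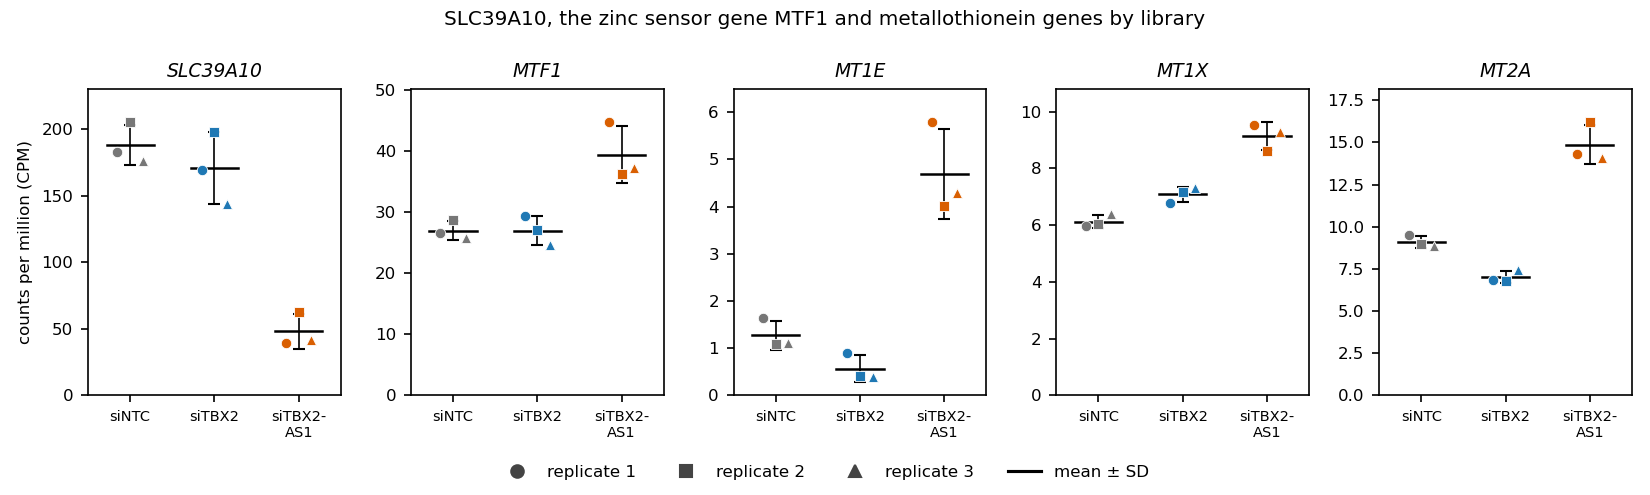
Levels in CPM (y axes, from 0, scaled per panel) of SLC39A10, MTF1 and 3 metallothionein genes in the 3 siRNA groups (x axis), with points for libraries and lines with bars for the mean ± SD of 3 libraries. The siTBX2-AS1 libraries are the lowest for SLC39A10 and the highest for MTF1, MT1E, MT1X and MT2A, where MT2A runs from 14.1 to 16.2 CPM.

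Promoters were searched for the core of the metal response element, TGCACNC or TGCGCNC on either strand, in RefSeq windows of 300 bases around gene starts (GRCh38). At least 1 core was in 29.6% of 35116 such windows, at least 2 in 8.60% and at least 4 in 0.601%. Of the 4 genes that rose, MT2A held 8, MT1X 4 and MTF1 0, and MT1E was not matched. MT1H held 8 and MT1B and MT4 held 3 each, and these 3 genes were at 0 counts in all libraries. Among the tested family genes SLC30A1 held 2, and SLC39A3, SLC39A6, SLC30A4 and SLC30A6 held 1 each. SLC39A1, SLC39A10 and SLC39A13 held 1 in 1 of 2 windows and SLC39A8 in 1 of 3. SLC39A7, SLC39A9, SLC39A11, SLC30A5, SLC30A7 and SLC30A9 held 0. Examples are shown for MT2A and MT1X, for the MTF1 target SLC30A1 and for SLC39A10, 5′ to 3′ on the gene's strand with the core in capitals. In SLC30A1 the core reads on the opposite strand.
MT2A: cggggctttTGCACTCgtcccggct
MT1X: acgggttgcTGCACCCggcccagga
SLC30A1 site 1: gggggttccGAGTGCAaagcaaagt
SLC30A1 site 2: gaccgggccGAGTGCAgctgccgtg
SLC39A10: gagaggagaTGCACACggcactcga

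The windows of MT2A and MT1X are at chr16:56608521-56608545 and chr16:56682339-56682363 (plus strand), those of SLC30A1 at chr1:211579195-211579219 and chr1:211579122-211579146 (minus strand) and that of SLC39A10 at chr2:195657250-195657274 (plus strand). SLC30A1, with 2 cores, did not follow the metallothionein genes past the test, at -0.22 (SE 0.37) in siTBX2-AS1. A core is a match of letters, and binding was not measured.

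A list of partners, kinases and transcription factors linked to ZIP6, ZIP7 and ZIP10 had 9 tested genes. EdgeR called 2 of them lower in siTBX2-AS1 against siNTC, where 2.78% of all genes were, and 1 lower between the knockdowns, where 3.5% were. In siTBX2 against siNTC it called 0, with 2 at an unadjusted p under 0.05 and 2 called by DESeq2. CSNK2A1, a catalytic subunit of casein kinase 2, which phosphorylates ZIP7, was at 295, 325 and 304 CPM in siNTC replicates 1, 2 and 3, 367, 370 and 360 CPM in those of siTBX2 and 244, 265 and 246 CPM in those of siTBX2-AS1. It fell by 0.29 on the log2 scale against siNTC (SE 0.06, adjusted p = 0.0343, a call held in 2 of 9 fits without 1 library and lost on FPKM, at 0.320) and was lower than in siTBX2 by -0.54 (SE 0.06, adjusted p = 0.00238, held in all 9). In siTBX2 against siNTC it was at 0.25 (SE 0.06, adjusted p = 0.0973), with an adjusted p of 0.0360 with the replicate block. CSNK2A2, the other catalytic subunit, did not pass the test, at 0.17 over siNTC in siTBX2-AS1 (SE 0.09, adjusted p = 0.368), with its siTBX2-AS1 libraries above all siNTC libraries. SNAI2, a transcription factor of epithelial-mesenchymal transition, was at 6.09 to 8.30, 5.54 to 5.92 and 2.89 to 4.35 CPM, and its fall of -0.90 against siNTC (SE 0.19, adjusted p = 0.0348) held in 1 of 9 such fits, that without siNTC replicate 3, and not on FPKM (0.0521). Of 6 tested enzymes of the secretory pathway and 10 genes of manganese and iron handling, edgeR called 0 in every comparison, with 2, 0 and 1 and with 2, 1 and 6 at an unadjusted p under 0.05 in siTBX2 and siTBX2-AS1 against siNTC and between the knockdowns. DESeq2 called 1, 0 and 1 of the enzymes and 1, 0 and 3 of the others. Of 2 further genes, TRPM7 and CNNM4, edgeR called 0, with 2, 1 and 1 at an unadjusted p under 0.05, and DESeq2 called 0, 1 and 0.

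Of the zinc-requiring enzymes of the secretory pathway, which receive their metal through ZnT5, ZnT6 and ZnT7, 6 of 9 were tested and 0 were called by edgeR in any comparison. Their counts at an unadjusted p under 0.05 were 2 in siTBX2 against siNTC, 0 in siTBX2-AS1 against siNTC and 1 between the knockdowns, and DESeq2 called 1, 0 and 1. Among 10 manganese and iron handling genes, considered because ZIP8 and ZIP14 carry those ions, edgeR also called 0, with 2, 1 and 6 at an unadjusted p under 0.05, 1, 0 and 3 by DESeq2 and 2, 1 and 5 with the replicate block. TRPM7 and CNNM4, tested out of 3 further metal transport genes listed, gave 0 calls by edgeR. At an unadjusted p under 0.05 the counts were 2, 1 and 1, DESeq2 called 0, 1 and 0, and the replicate block gave 0, 1 and 1.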

How the data were processed

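RNA of 9 NLF libraries was measured as gene-level expression. Per the labels' protocols, total RNA was made into libraries with a stranded kit and Ribo-Zero treatment, and FastQC, STAR 2.4.2a, StringTie 1.3.3 and the hg19 build are named in the submitters' processing notes. The authors deposited a table of whole numbers per gene, read here like estimated counts. Its counting program, annotation and use of strand are not given in the sources used here. Also deposited by the authors were FPKM values per gene and library. Replicates were not pooled, and edgeR's p-values rest on a spread among biological replicates that is estimated per gene and shared by all 3 groups. A comparison therefore also depends on the group left out of it.

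The members and gene lists were chosen with earlier results of these data known. Genes named are all 10 members, the other tested family genes, up to 4 called genes per zinc gene list and comparison by smallest adjusted p, MTF1, MT1X and MT2A whatever their values, the 5 profiles nearest SLC39A10, and the 2 siRNA targets. CSNK2A2 and the cell type markers given with values were named after their values were seen. Gene IDs were matched to symbols after removing versions (51945 of 57757 through the given name table). Counts were tested in edgeR 4.0.16 (R 4.3.3; filterByExpr, TMM, robust quasi-likelihood fit over all 9 libraries, group means only), with Benjamini-Hochberg adjusted p under 0.05 over 18367 genes. The code was tested on simulated data. FPKM were compared between genes without a test and, as an alternative, in limma 3.58.1 on log2(FPKM + 1). DESeq2 1.42.0 was another alternative, beside other scalings and filters, limma-voom, fits of only the compared groups and fits without 1 library. Same-numbered libraries deviated together (correlations of 0.136 to 0.241 for siTBX2 with siNTC and 0.104 to 0.243 for siTBX2-AS1 with siNTC). The block by replicate number is therefore given where it changed a call of a gene followed singly under each setting. Gene positions and 3′ UTRs are from GENCODE 29 and promoters from RefSeq, both GRCh38. These coordinates are not those of the files' build. Sequences of chromosome 8 genes are not printed.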

Additional observations from a re-analysis of the deposited data

How the results depend on the processing

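The number of genes called in siTBX2 against siNTC was 295 and became 184 with no filter on low counts, 1200 with DESeq2, 52 with only the compared groups, 873 with the replicate block, 34 with log2(FPKM + 1), 34 with log2(FPKM + 0.1), 5 with no filter on FPKM, and 44 to 177 without 1 library. In siTBX2-AS1 against siNTC it was 840 and became 1802 with DESeq2, 461 with only the compared groups, 1741 with the replicate block, 350, 367 and 230 with the FPKM settings, and 402 to 654 without 1 library. In siTBX2-AS1 against siTBX2 it was 1015 and became 2153 with DESeq2, 2084 with the replicate block, 459, 450 and 273 with the FPKM settings, and 469 to 918 without 1 library. Correlations of same-numbered libraries were 0.073 to 0.219 between the knockdown groups, and the replicate block was an alternative there too, not part of the main fit. SLC39A10 stayed below siNTC and siTBX2 in every setting run. The other member called in siTBX2-AS1 against siTBX2, SLC39A6, was lost with no filter and with all FPKM settings (count 1 in place of 2) and in some fits without 1 library (1 to 2). Of the other family genes, 1 in place of 0 was called in siTBX2 against siNTC with DESeq2 and with the replicate block. In siTBX2-AS1 against siNTC the 1 call became 2 with DESeq2, 0 with only the compared groups and with all FPKM settings, and 0 to 1 without 1 library, and in siTBX2-AS1 against siTBX2 the 0 became 1 with DESeq2 and 0 to 1 without 1 library. Calls among MTF1 and the metallothionein genes in siTBX2 against siNTC went from 0 to 2 with DESeq2 and 1 with the replicate block. In siTBX2-AS1 against siNTC they went from 4 to 2 with no filter, with only the compared groups and with no filter on FPKM, and to between 1 and 4 without 1 library. The cause of these shifts was not tested. Among the genes followed singly under each setting, the block changed the calls of SLC30A6, MT1E, CSNK2A1, SLC11A2 and STMN2 in siTBX2 against siNTC. It also changed those of CNNM4 in siTBX2-AS1 against siNTC and SLC11A2 between the knockdowns, and no other. TRPM7, MITF and PMEL were not followed singly. With the block, 1 of the 2 genes TRPM7 and CNNM4 was called between the knockdowns, in place of 0. Of 5 tested Schwann cell and melanocyte markers, 1 in place of 0 was called in siTBX2-AS1 against siNTC and against siTBX2.

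Direction changed only where no call was made. With the FPKM settings (pseudocounts 1 and 0.1, and 1 with no filter) SLC39A3 became 0.02, 0.03 and 0.02 and SLC30A4 -0.05, -0.08 and -0.05 in siTBX2 against siNTC, and SLC39A13 became 0.09, 0.12 and 0.09 in siTBX2-AS1 against siNTC. Without 1 library the ranges that crossed 0 in siTBX2 against siNTC were -0.20 to 0.61 for SLC39A8, -0.03 to 0.32 for SLC39A9, -0.22 to 0.43 for SLC30A1, -0.18 to 0.09 for SLC39A3, -0.14 to 0.02 for SLC30A7 and -0.08 to 0.06 for MTF1. In siTBX2-AS1 against siNTC they were -0.03 to 0.47 for SLC39A1, -0.65 to 0.04 for SLC39A14, -0.49 to 0.13 for SLC30A1, -0.19 to 0.12 for SLC39A13, -0.06 to 0.23 for SLC11A2, -0.11 to 0.10 for SLC39A11 and -0.19 to 0.21 for SLC30A4, and between the knockdowns -0.02 to 0.39 for SLC39A9 and -0.38 to 0.01 for SLC30A4. Of the single-gene values under an alternative, 1798 kept direction and side of the threshold, 127 lost the call, 22 gained one and 29 changed direction. A difference that rounded to 0.00, as for MTF1 and SLC39A11 in the comparisons above, was never counted as a change of direction.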

Other observations

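Metal transporter genes outside the zinc families, named here after their values were seen, differed between groups without passing edgeR's test. SLC11A2, which codes for the iron and divalent metal importer DMT1, was at 67.9, 47.3 and 55.9 CPM with control siRNA, 38.3, 33.7 and 39.4 CPM with siTBX2 and 70.1, 45.8 and 64.9 CPM with siTBX2-AS1. All siTBX2 libraries were below the other 6, with log2 differences of -0.62 for siTBX2 against siNTC (SE 0.18, adjusted p = 0.142 in edgeR, 0.0300 in DESeq2 and 0.0307 with the replicate block) and 0.70 for siTBX2-AS1 against siTBX2 (SE 0.18, adjusted p = 0.0644 in edgeR, 0.00817 in DESeq2, 0.0116 with the replicate block and 0.0311 without siTBX2-AS1 replicate 2). CNNM4, a divalent metal transporter of the cell surface, was at 11.9, 13.2 and 14.7 CPM with control siRNA, 15.5, 16.4 and 16.5 CPM with siTBX2 and 17.4, 17.9 and 19.9 CPM with siTBX2-AS1. Its siTBX2-AS1 libraries were above all others, 0.47 over siNTC on the log2 scale (SE 0.11, adjusted p = 0.0553, 0.00209 in DESeq2 and 0.0196 with the replicate block).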
